A study of Homo sapiens with 8 samples.

Results

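The genes described here are 49 genes of DNA replication origins and forks, chosen by name and matched to the arrays by transcript accession. They are the 6 subunits of the origin recognition complex (ORC1 to ORC6), 3 licensing genes (CDC6, CDT1 and GMNN), the 6 subunits of the helicase core (MCM2 to MCM7), 8 genes of helicase activation (CDC7, DBF4, MCM10, CDC45 and GINS1 to GINS4), 4 genes of primase and polymerase alpha (PRIM1, PRIM2, POLA1 and POLA2), 5 of polymerases delta and epsilon (POLD1, POLD2, POLD3, POLE and POLE2), 6 of the sliding clamp and its loader (PCNA and RFC1 to RFC5), 3 of the single-strand binding protein (RPA1 to RPA3), 3 of Okazaki fragment processing (FEN1, LIG1 and DNA2) and 5 of fork protection and chromatin assembly (WDHD1, TIMELESS, TIPIN, CHAF1A and CHAF1B). All 49 had a probe that was well above background on at least 1 of the 8 arrays, and 42 of them were well above background on all 8. They are set against the 15811 genes that met the same condition.

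RNA came from MCF10A cells, human mammary epithelial cells that grow in culture without being tumorigenic, either p53+/+ or p53−/−. Cells were exposed to 0.5 µg/ml of doxorubicin (adriamycin, ADR), which damages DNA, for 2 h according to the sample labels, and were harvested 12, 24 or 48 h later, while untreated cells served as 0 h. The study's methods give a higher dose than the labels. There was 1 single-colour array for each genotype and time, 8 in all, so no value at a single time has a replicate error, and the number of arrays limits the precision. How the p53−/− line was made, and whether it is 1 clone, was not given in the sources used here.

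A cell copies its DNA once per division. In G1, the origin recognition complex together with CDC6 and CDT1 loads the MCM2 to MCM7 ring onto origins, and geminin, the product of GMNN, blocks further loading. At the start of S phase, the kinase CDC7 with its activator DBF4, together with MCM10, turns the loaded ring into an active helicase by joining it to CDC45 and the GINS complex, after which primase, the polymerases, the clamp and the enzymes that finish Okazaki fragments copy the DNA. Most of these genes are known to be transcribed in late G1 and S phase through E2F sites in proliferating cells, and ORC2 to ORC5 are known to vary less over the cell cycle.

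All levels below are log2 processed signals after division by their own array's 75th percentile, and a difference of 1 on this scale is 2-fold. The 75th percentile of the signal was 879 to 1199 on p53−/− arrays, 1015 on the array labelled p53+/+ 0 h and 661 to 818 on the treated p53+/+ arrays, and 49.8 to 62.9% of probes were well above background. None of the 10 spike-in probes was well above background on the p53+/+ 48 h array, against 6 of 10 on each of the other 7 arrays. All 8 arrays lay on 1 slide with each genotype in a column of its own, so genotype and position on the slide cannot be told apart.

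The label of the array labelled p53+/+ 0 h is treated as in doubt. That array read like the p53−/− arrays in most probes that separate treated p53+/+ arrays from p53−/− arrays. CDKN1A, the cell-cycle inhibitor p21 and a p53 target, read −2.97 before and −0.96, −0.64 and −0.48 after treatment in p53−/− cells, −1.14 on the labelled array, and 2.54, 2.63 and 2.70 on the treated p53+/+ arrays. Of 106 probes that differed at least 4-fold between treated p53+/+ and all p53−/− arrays and stayed within 0.70 inside each group, only 3 read nearer to treated p53+/+ than to p53−/− on the labelled 0 h array. These probes were chosen on treated p53+/+ arrays, so they cannot tell an untreated p53+/+ array from a p53−/− array and do not decide the label. MDM2, a p53 target, read −2.04 to −1.33 in p53−/− cells, −1.66 on the labelled array and 1.29 to 1.76 in treated p53+/+ cells. The labelled array minus the p53−/− 0 h array was 1.83 for CDKN1A and −0.33 for MDM2. Because the label is not settled, the comparison of treated p53+/+ with treated p53−/− arrays, which uses no 0 h array, comes first.

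The keratins KRT5, KRT14, KRT17 and KRT18 and the integrin ITGA6 were well above background on all 8 arrays, whereas TP63 was so on 3. All 8 mammary epithelial markers were well above background on 3 arrays and 7 of 8 on the other 5, with a summed linear level of 73.7 to 115 on the p53−/− arrays, 103 on the array labelled p53+/+ 0 h and 219 to 288 on the treated p53+/+ arrays. The epithelial adhesion gene CDH1 read −3.55 to −0.94 on the p53−/− arrays, −3.13 on the array labelled p53+/+ 0 h and 1.42 to 2.10 on the treated p53+/+ arrays. Of 8 markers of other cell types, 5 to 7 were well above background on the p53−/− arrays, 5 on the labelled array and 3 on the treated p53+/+ arrays, with a summed linear level of 52.4 to 67.5, 54.4 and 4.55 to 5.48. The fibroblast gene DCN carried this sum, at 5.70 to 6.07 on the p53−/− arrays, 5.75 on the labelled array and 2.09 to 2.37 on the treated p53+/+ arrays, and COL3A1 was at background on every array. The treated genotypes therefore also differed in these markers, and the part of this in the values below was not tested. In bulk RNA, fewer cells that copy DNA and less RNA of these genes per cell cannot be told apart.

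The replication genes were lower in treated p53+/+ than in treated p53−/− cells, from 12 h on. At 12 h, 33 of 49 were at least 2-fold lower, against 9.70% of all genes. At 24 h, 35 of 49 were, against 14.0%, and at 48 h, 41 of 49 were, against 15.5%. None was at least 2-fold higher at any time, against 12.85, 13.05 and 16% of all genes at 12, 24 and 48 h. The median difference of the 49 genes was −1.35, −1.71 and −2.91 at 12, 24 and 48 h, whereas that of all genes was 0.09, −0.03 and 0.10. At all 3 times, 31 of the 49 were at least 2-fold lower, against 5.92% of all genes. The technical SD of such a difference was 0.028 to 0.25 for these genes with a median of 0.066. It was taken from the spread of spots within each array for probes printed in 10 spots. It therefore holds no variation between labellings or hybridisations and is a lower limit of the error between arrays.

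**Figure D1:**
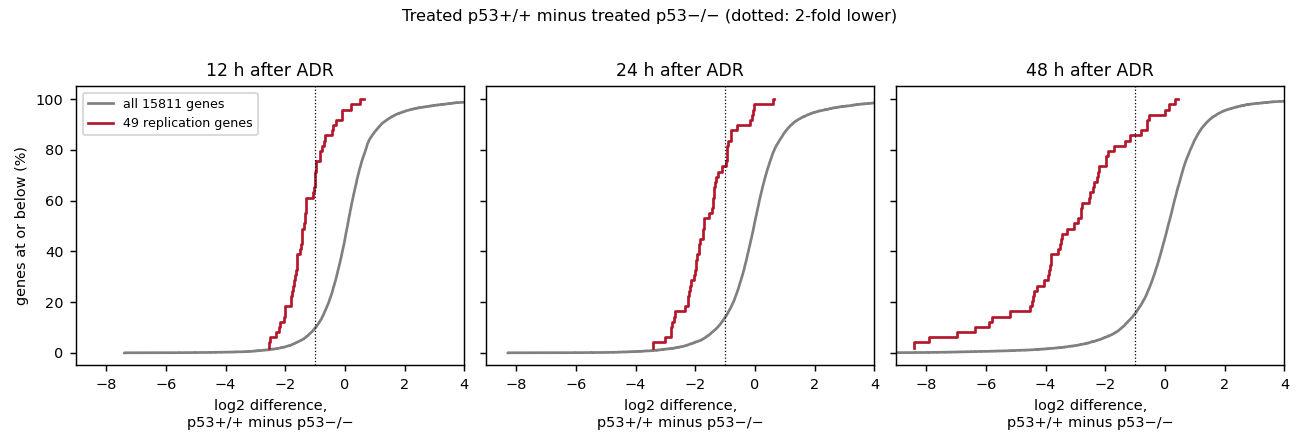
Cumulative share of genes (vertical axis, %) against the log2 difference between treated p53+/+ and treated p53−/− (horizontal axis), at 12, 24 and 48 h, for the 49 replication genes and all 15811 genes. The curve of the replication genes lies to the left of that of all genes at each time, with medians of −1.35, −1.71 and −2.91, and has a tail down to −8.40 at 48 h.

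For 42 of 49 genes, each of the 3 treated p53+/+ arrays lay below each of the 3 treated p53−/− arrays, against 19.9% of all genes. In 1 gene, ORC4, each lay above, against 24.6% of all genes. The groups overlapped in the other 6, ORC2, ORC5, PRIM2, PCNA, RPA3 and LIG1. In the limma fit of genotype over the 6 treated arrays, in which time points stand in for replicates and p-values measure the difference against movement over time, 23 of 49 genes were lower at a Benjamini-Hochberg adjusted p under 0.05, against 7.40% of probes. None was higher, against 10.6% of probes. At an unadjusted limma p under 0.05, 1 gene was higher and 41 lower, a threshold at which no share of all probes is given here. The median of the fitted differences was −2.07 for the 49 genes and 0.09 for all probes. Time as a block, which pairs the genotypes by time, gave 26, of which 21 were among the 23, against 1881 of 28947 probes. The count ranged from 5 to 35 when 1 array was left out: it was 12 without p53+/+ 24 h, 35 without p53+/+ 48 h, 11 without p53−/− 12 h, 5 without p53−/− 24 h and 9 without p53−/− 48 h. In the same order, 986, 2009, 1544, 684 and 1114 of 28947 probes were lower, so the calls over all probes moved too.

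**Figure D2:**
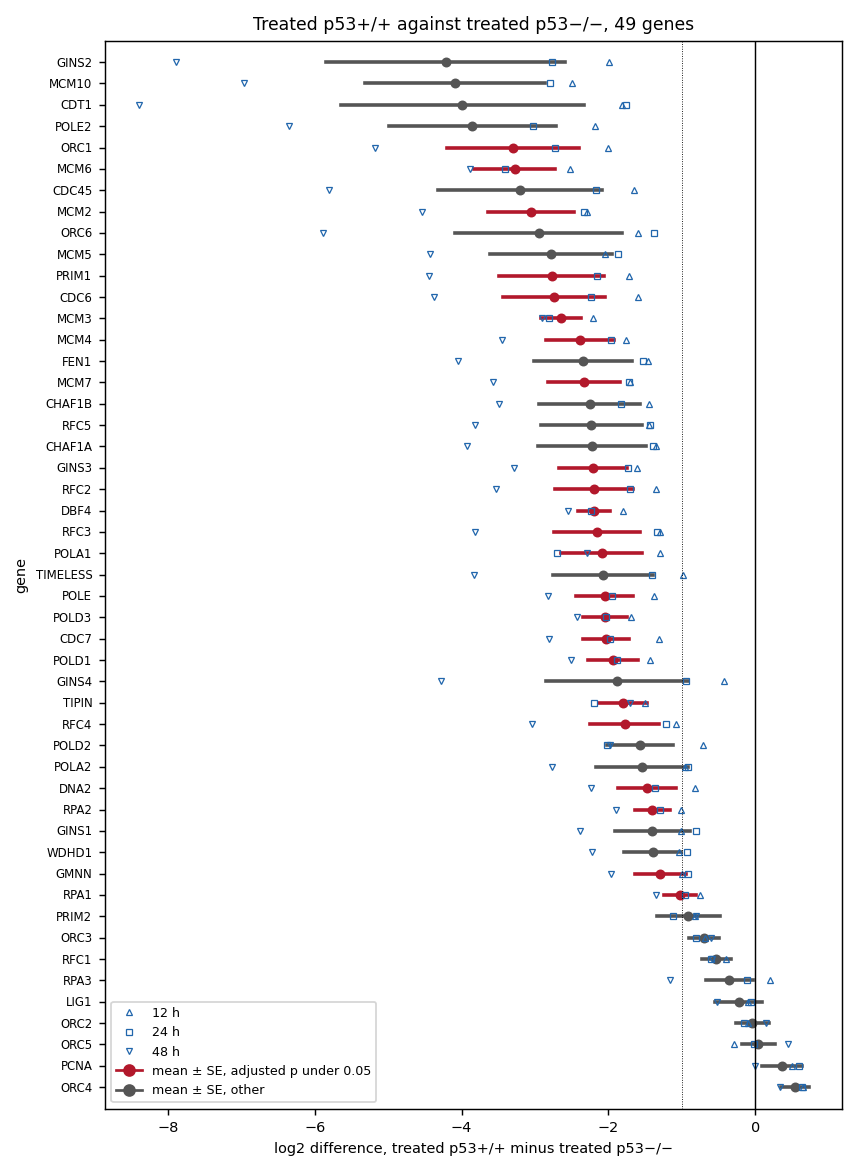
Log2 difference between treated p53+/+ and treated p53−/− (horizontal axis) for each of the 49 genes (rows, ordered by the mean). Open symbols are the 3 times, filled circles with bars are the limma mean ± SE over the 6 arrays, in red where the adjusted p was under 0.05, and the dotted line marks 2-fold lower. The 48 h value lies farthest left for most genes, and ORC2, ORC5, PCNA and ORC4 lie around or above 0.

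The promoters of 42 of the 49 genes were found in the RefSeq table (GRCh38.p14), as 250 bases before to 50 after the start. An E2F site, searched on both strands as TTTCCCGC, TTTCGCGC, TTTGCCGC or TTTGGCGC, was present in 17 of 42 (40.5%), against 617 of 12448 promoters of all genes (4.96%). It was in 12 of 27 genes (44.4%) that were at least 2-fold lower at all 3 times and in 5 of the other 15 (33.3%). A CCAAT box was in 23 of 42 (54.8%), against 36.6% of all, and the CHR element TTTGAA in 1 of 42 (2.38%), that of DBF4, against 10.8% of all. A match is a description of the letters and not of binding. Of the 4 promoters printed, GINS2 and MCM6 belong to genes with large differences, PCNA to a gene with a match and no such difference, and ORC4 to the gene with the highest difference and no match. All are on the minus strand and are printed 5′ to 3′ in the direction of transcription with E2F matches in capitals. In MCM6, TTTGGCGC shares bases with TTTCGCGC on the opposite strand at both places, which counts as 4 matches. The windows are chr16:85688905-85689204 for GINS2, chr2:135876394-135876693 for MCM6, chr20:5126573-5126872 for PCNA and chr2:148021502-148021801 for ORC4.
GINS2: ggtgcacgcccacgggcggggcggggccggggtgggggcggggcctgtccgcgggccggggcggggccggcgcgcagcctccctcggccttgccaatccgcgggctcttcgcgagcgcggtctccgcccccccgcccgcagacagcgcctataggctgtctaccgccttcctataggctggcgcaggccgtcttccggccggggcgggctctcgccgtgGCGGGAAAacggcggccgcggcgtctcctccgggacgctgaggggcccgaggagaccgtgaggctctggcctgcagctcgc
MCM6: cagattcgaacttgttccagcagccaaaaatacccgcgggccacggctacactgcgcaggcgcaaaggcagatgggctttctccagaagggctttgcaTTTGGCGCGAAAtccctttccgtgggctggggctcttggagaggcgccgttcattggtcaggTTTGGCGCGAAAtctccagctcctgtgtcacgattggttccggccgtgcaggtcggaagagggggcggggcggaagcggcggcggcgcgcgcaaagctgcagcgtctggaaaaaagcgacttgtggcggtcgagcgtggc
PCNA: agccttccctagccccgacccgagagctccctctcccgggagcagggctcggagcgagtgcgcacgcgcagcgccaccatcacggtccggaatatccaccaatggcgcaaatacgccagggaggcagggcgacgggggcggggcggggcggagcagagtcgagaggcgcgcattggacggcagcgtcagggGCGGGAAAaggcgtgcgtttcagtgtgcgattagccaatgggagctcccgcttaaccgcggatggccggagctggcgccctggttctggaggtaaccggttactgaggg
ORC4: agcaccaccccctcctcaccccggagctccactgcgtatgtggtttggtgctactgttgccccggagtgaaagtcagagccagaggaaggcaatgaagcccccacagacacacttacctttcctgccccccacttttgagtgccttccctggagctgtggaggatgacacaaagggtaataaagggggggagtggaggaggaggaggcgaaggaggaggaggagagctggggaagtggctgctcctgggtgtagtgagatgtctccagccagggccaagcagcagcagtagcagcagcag

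The MCM2 to MCM7 helicase core was lower throughout. All 6 genes were at least 2-fold lower in treated p53+/+ cells at all 3 times, and 5 of 6 passed the limma fit, with fitted differences of −3.27 to −2.33. At 0, 12, 24 and 48 h, MCM6 read 2.55, 3.83, 3.35 and 3.00 in p53−/− cells and 3.21, 1.30, −0.07 and −0.88 on the arrays labelled p53+/+. MCM2 read 2.44, 3.60, 3.48 and 3.59 in p53−/− cells and 2.84, 1.30, 1.14 and −0.95 on the arrays labelled p53+/+. Both were lowest at 48 h in p53+/+ cells, and in neither did the treated genotypes overlap. MCM6 was 5.77, 10.7 and 14.7-fold lower at the 3 times (fit −3.27 ± 0.55, SE, limma with Benjamini-Hochberg adjusted p = 0.0116). MCM2 was 4.92, 5.05 and 23.2-fold lower (−3.06 ± 0.58, limma adjusted p = 0.0170).

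MCM3 had the smallest standard error of the 6. Its level was 4.19, 5.11, 4.96 and 4.92 in p53−/− cells and 4.64, 2.90, 2.15 and 2.01 on the arrays labelled p53+/+, so that most of its fall was in place by 24 h. It was 4.64, 7.02 and 7.52-fold lower (−2.65 ± 0.27, limma adjusted p = 0.0023). MCM4 and MCM7 stayed level between 12 and 24 h in p53+/+ cells and were lower again at 48 h. MCM4 read 1.93, 2.78, 2.94 and 2.78 in p53−/− cells and 2.36, 1.02, 0.98 and −0.66 on the arrays labelled p53+/+. MCM7 read 5.51, 6.26, 6.15 and 6.28 against 5.99, 4.54, 4.43 and 2.70. The treated groups of both did not overlap, with fits of −2.39 ± 0.46 for MCM4 and −2.33 ± 0.49 for MCM7 (limma adjusted p = 0.0174 and 0.0221). MCM5 read 2.42, 3.37, 2.66 and 2.46 in p53−/− cells and 2.68, 1.33, 0.79 and −1.97 on the arrays labelled p53+/+. It was 21.6-fold lower at 48 h and its groups did not overlap, but it did not pass the fit (−2.78 ± 0.84, limma adjusted p = 0.065, and 0.0421 with time as a block).

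Of the 3 licensing genes, CDC6 and GMNN passed the fit, and CDC6 and CDT1 were at least 2-fold lower at all 3 times. CDC6, the loading ATPase, read −4.30, −1.95, −1.98 and −2.07 in p53−/− cells and −2.32, −3.56, −4.21 and −6.45 on the arrays labelled p53+/+. It was not well above background on the p53+/+ 24 and 48 h arrays, and was at least 4.71-fold lower at 24 h and at least 5.88-fold lower at 48 h, the bound being set against the higher of the gene's own signal and the lowest signal well above background on the dim array. That lowest signal was −4.50 at 24 h, below the −4.21 of CDC6, so probes differ in this limit and 4.71-fold is the measured value. Such bounds, here and below, are therefore not strict lower limits. The fit of CDC6 gave −2.74 ± 0.70 (limma adjusted p = 0.0405). The fits of CDC6 and of the 6 other genes not well above background at 48 h (ORC1, CDT1, MCM10, GINS2, POLE and POLE2) used the measured values there, so their size is not a bound. CDT1, which brings the MCM ring to the origin, read 2.50, 3.03, 3.04 and 3.29 in p53−/− cells and 2.92, 1.22, 1.29 and −5.11 on the arrays labelled p53+/+. The p53+/+ 48 h array stands far below all others for CDT1 and was not well above background. CDT1 was 3.51 and 3.38-fold lower at 12 and 24 h and at least 242-fold lower at 48 h, and with this spread over time the fit did not pass (−3.99 ± 1.65, limma adjusted p = 0.144). GMNN, the inhibitor of licensing, moved less, reading 3.09, 3.42, 3.35 and 3.23 in p53−/− cells and 3.26, 2.42, 2.44 and 1.27 on the arrays labelled p53+/+. Its treated groups did not overlap, and it passed the fit at −1.29 ± 0.34 (limma adjusted p = 0.0459).

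**Figure D3:**
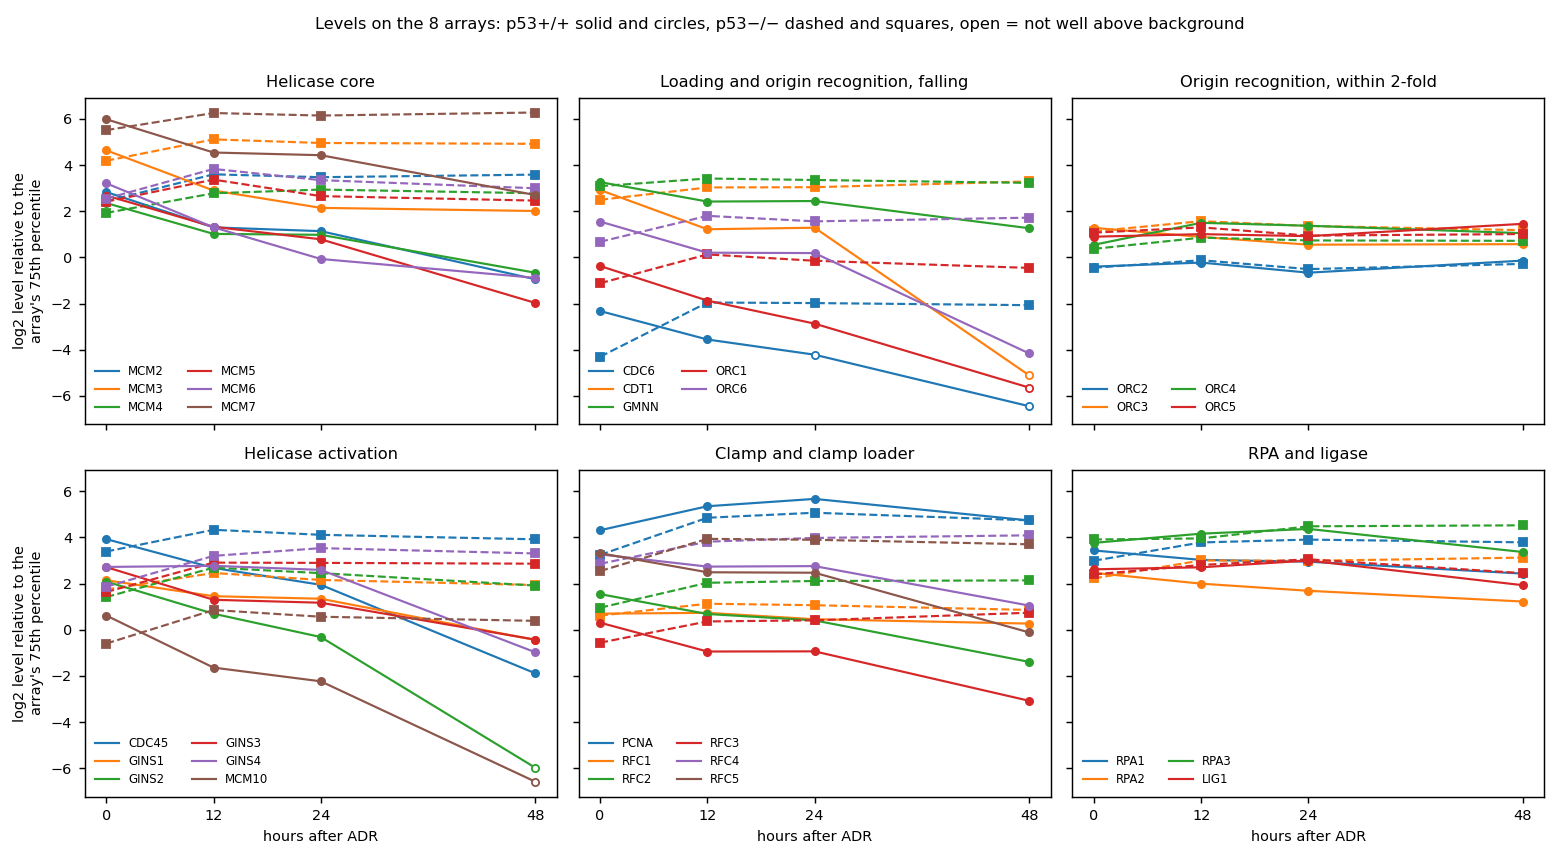
Log2 level over the 75th percentile of the array (vertical axis) against hours after ADR (horizontal axis) for 31 of the genes in 6 groups. Solid lines with circles are arrays labelled p53+/+, dashed lines with squares are p53−/− arrays, and open circles were not well above background. Most helicase, loading and activation genes part between genotypes from 12 h, and GINS4 mainly at 48 h. ORC2 to ORC5 and LIG1 stay within 2-fold, and PCNA lies at or above the p53−/− level.

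The origin recognition complex divided between its subunits. ORC1 and ORC6 were at least 2-fold lower at all 3 times, and ORC2, ORC3, ORC4 and ORC5 were within 2-fold at every time. ORC1, the subunit most tied to the cell cycle, read −1.12, 0.13, −0.14 and −0.45 in p53−/− cells and −0.37, −1.87, −2.87 and −5.64 on the arrays labelled p53+/+. The p53+/+ arrays lay below the p53−/− arrays at each treated time, and the 48 h array was not well above background. ORC1 was 4 and 6.61-fold lower at 12 and 24 h and at least 18.0-fold lower at 48 h, and was the only subunit past the fit (−3.30 ± 0.90, limma adjusted p = 0.0491). ORC6 was 3.02, 2.59 and 58.9-fold lower (−2.95 ± 1.14, limma adjusted p = 0.123), and ORC3 had a fit of −0.70 ± 0.20 (limma adjusted p = 0.0565).

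ORC2 read −0.45, −0.12, −0.51 and −0.28 in p53−/− cells and −0.40, −0.22, −0.66 and −0.14 on the arrays labelled p53+/+. ORC5 read 1.07, 1.30, 0.95 and 1.01 against 0.90, 1.01, 0.92 and 1.46. The genotypes overlapped in both, with fits of −0.04 ± 0.22 and 0.04 ± 0.22 (limma adjusted p = 0.927 and 0.919). The sign of ORC5 was negative under 4 other scalings and probe choices and that of ORC2 turned without single arrays. ORC4 read 0.37, 0.86, 0.74 and 0.72 in p53−/− cells and 0.55, 1.50, 1.37 and 1.05 on the arrays labelled p53+/+, above at each time. It had the highest fit of the 49, 0.54 ± 0.19, which did not pass (limma adjusted p = 0.104). It was −0.06 without scaling of the arrays. With normexp background correction ORC4 was called higher (0.47, limma adjusted p = 0.0445), as were 7257 of 28947 probes. A further ORC4 probe gave 0.14.

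The activation genes were lower at 48 h in every case. Of 8, 6 were at least 2-fold lower at all 3 times, and GINS3, DBF4 and CDC7 passed the fit. GINS2, a GINS subunit, had the lowest fit of the 49. GINS2 read 1.42, 2.69, 2.45 and 1.91 in p53−/− cells and 2.09, 0.69, −0.32 and −5.98 on the arrays labelled p53+/+. Its p53+/+ 48 h array was not well above background and its treated groups did not overlap. It was 3.98 and 6.82-fold lower at 12 and 24 h and at least 93.0-fold lower at 48 h, with a fit of −4.22 ± 1.63 (limma adjusted p = 0.123). MCM10, which helps to start the helicase, read −0.60, 0.85, 0.56 and 0.39 in p53−/− cells and 0.62, −1.64, −2.23 and −6.58 on the arrays labelled p53+/+. It likewise was not well above background at 48 h in p53+/+ cells, where it was at least 32.2-fold lower (fit −4.09 ± 1.22, limma adjusted p = 0.0644).

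CDC45, a helicase subunit, read 3.39, 4.33, 4.11 and 3.92 in p53−/− cells and 3.93, 2.68, 1.95 and −1.89 on the arrays labelled p53+/+. It was well above background on all 8 arrays, and was 3.14, 4.49 and 55.9-fold lower, without passing the fit (−3.21 ± 1.11, limma adjusted p = 0.0954). The other GINS subunits were closer to each other at 12 and 24 h. GINS3 read 1.63, 2.91, 2.90 and 2.86 in p53−/− cells and 2.71, 1.30, 1.17 and −0.43 on the arrays labelled p53+/+, and passed the fit at −2.21 ± 0.46 (limma adjusted p = 0.0216). GINS1 read 1.74, 2.46, 2.16 and 1.94 against 2.14, 1.45, 1.34 and −0.44, with a fit of −1.40 ± 0.52 (limma adjusted p = 0.11). It was 2.01, 1.76 and 5.21-fold lower at 12, 24 and 48 h. The smallest difference among the GINS subunits was that of GINS4 at 12 h and that of GINS1 at 24 h. GINS4 read 1.87, 3.20, 3.54 and 3.31 in p53−/− cells and 2.72, 2.77, 2.59 and −0.98 on the arrays labelled p53+/+. It was 1.35 and 1.92-fold lower at 12 and 24 h and 19.4-fold lower at 48 h (−1.88 ± 0.96, limma adjusted p = 0.22).

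The kinase pair showed a steadier difference. DBF4 read −0.52, −0.62, −0.66 and −0.30 in p53−/− cells and −0.41, −2.42, −2.90 and −2.85 on the arrays labelled p53+/+. It had the smallest adjusted p of the 49 genes (−2.20 ± 0.22, limma adjusted p = 0.00204), although a further DBF4 probe was well above background on none of the 8 arrays. CDC7 was 2.48, 3.93 and 7.03-fold lower (−2.03 ± 0.31, limma adjusted p = 0.00859).

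Among the 9 primase and polymerase genes, PRIM1, POLA1, POLD1, POLD3 and POLE passed the fit as lower. Of primase and polymerase alpha, PRIM1 and POLA1 passed the fit (−2.77 ± 0.72 and −2.09 ± 0.55, limma adjusted p = 0.0425 and 0.0453). POLA2 was 1.95, 1.89 and 6.79-fold lower without passing, and the groups of PRIM2 overlapped (−0.91 ± 0.43, limma adjusted p = 0.188, and 0.0409 with time as a block). Of polymerases delta and epsilon, POLD1, POLD3 and POLE passed, at −1.94, −2.05 and −2.05 (limma adjusted p = 0.0126, 0.00726 and 0.0166). POLD2 was 1.64, 4.05 and 3.94-fold lower (−1.57 ± 0.45, limma adjusted p = 0.0585, and 0.0447 with time as a block). POLE2, the second subunit of polymerase epsilon, read −0.90, 0.24, 0.17 and −0.30 in p53−/− cells and −0.39, −1.94, −2.85 and −6.65 on the arrays labelled p53+/+. The treated groups did not overlap, and the p53+/+ 48 h array was not well above background for POLE2 or POLE. POLE2 was 4.54 and 8.12-fold lower at 12 and 24 h and at least 20.1-fold lower at 48 h, with a fit of −3.85 ± 1.14 (limma adjusted p = 0.0622, and 0.0497 with time as a block).

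The sliding clamp PCNA stood apart from its loader. PCNA, which also serves DNA repair, read 3.24, 4.85, 5.07 and 4.74 in p53−/− cells and 4.31, 5.35, 5.67 and 4.74 on the arrays labelled p53+/+. The p53+/+ arrays were above the p53−/− arrays at 12 and 24 h and level with them at 48 h, so the groups overlapped (0.36 ± 0.28, limma adjusted p = 0.401). Its difference was −0.23 without scaling of the arrays, and the further PCNA probes gave 0.27 and 0.10. The loader subunits RFC2, RFC3 and RFC4 passed the fit at −2.20, −2.15 and −1.78 (limma adjusted p = 0.0343, 0.0482 and 0.0452). With time as a block RFC3 and RFC4 no longer passed (limma adjusted p = 0.0715 and 0.0646). RFC5 was 14.1-fold lower at 48 h without passing (limma adjusted p = 0.0712), and RFC1, the large subunit, was 1.31, 1.52 and 1.51-fold lower (−0.53 ± 0.20, limma adjusted p = 0.117).

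The single-strand binding subunits RPA1 and RPA2 passed the fit at smaller sizes, −1.02 ± 0.22 and −1.40 ± 0.24 (limma adjusted p = 0.0231 and 0.0118). RPA3, the small subunit, read 3.91, 3.96, 4.48 and 4.52 in p53−/− cells and 3.76, 4.16, 4.37 and 3.37 on the arrays labelled p53+/+. Only the 48 h array was clearly lower, and the groups overlapped (−0.35 ± 0.32, limma adjusted p = 0.484, and 0.05 without the 48 h arrays). LIG1, the ligase that seals Okazaki fragments, read 2.40, 2.81, 3.05 and 2.45 against 2.62, 2.71, 3.00 and 1.93. It stayed within 2-fold at each time (−0.23 ± 0.32, limma adjusted p = 0.672, and 0.08 without the p53+/+ 48 h array). The flap nuclease FEN1 was 2.74, 2.88 and 16.5-fold lower (limma adjusted p = 0.0561), and DNA2 passed at −1.47 ± 0.40 (limma adjusted p = 0.0488).

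All 5 fork protection and chromatin assembly genes were at least 3.25-fold lower at 48 h. The pair TIMELESS and TIPIN, which holds stalled forks, differed in time: TIPIN was 2.84, 4.60 and 3.25-fold lower and TIMELESS 1.97, 2.65 and 14.3-fold lower. TIPIN was the only one of the 5 past the fit (−1.80 ± 0.32, limma adjusted p = 0.0139). The chromatin assembly subunits CHAF1A and CHAF1B were 15.2 and 11.3-fold lower at 48 h, and WDHD1 4.66-fold lower. Of the 5, CHAF1B also passed with time as a block (limma adjusted p = 0.0395).

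The fall in treated p53+/+ cells deepened late. The steps between times in p53+/+ cells use treated p53+/+ arrays only. From 24 to 48 h, 31 of 49 genes were at least 2-fold lower, against 6.07% of all genes, with a median step of −1.60 against 0.15. From 12 to 24 h, 5 were, MCM6, GINS2, POLA1, POLD2 and TIPIN, against 4.25%, with a median step of −0.28. In 35 genes the level was lower at each later time, against 16.0% of all genes, and in 42 genes the p53+/+ 48 h array was the lowest of all 8, against 12.5%. Among genes well above background on both arrays, the largest steps from 24 to 48 h were in ORC6 (−4.35), CDC45 (−3.83) and GINS4 (−3.57). CDT1, GINS2 and MCM10 were not well above background at 48 h, and against the lowest signal that was, their log2 steps were −5.91, −4.31 and −2.39 or lower. Like the bounds above, these limits are not strict. CDC6, counted among the 31, was not well above background on either array. MCM3, DBF4, POLD2 and TIPIN had steps of −0.14, 0.06, −0.20 and 0.46. These late steps rest on 1 array, the one on which no spike-in probe was well above background, and its part in them was not tested. In p53−/− cells, 2 of 49 genes, PRIM2 and POLA1, were at least 2-fold lower at 48 than at 24 h, against 1.39% of all genes.

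**Figure D4:**
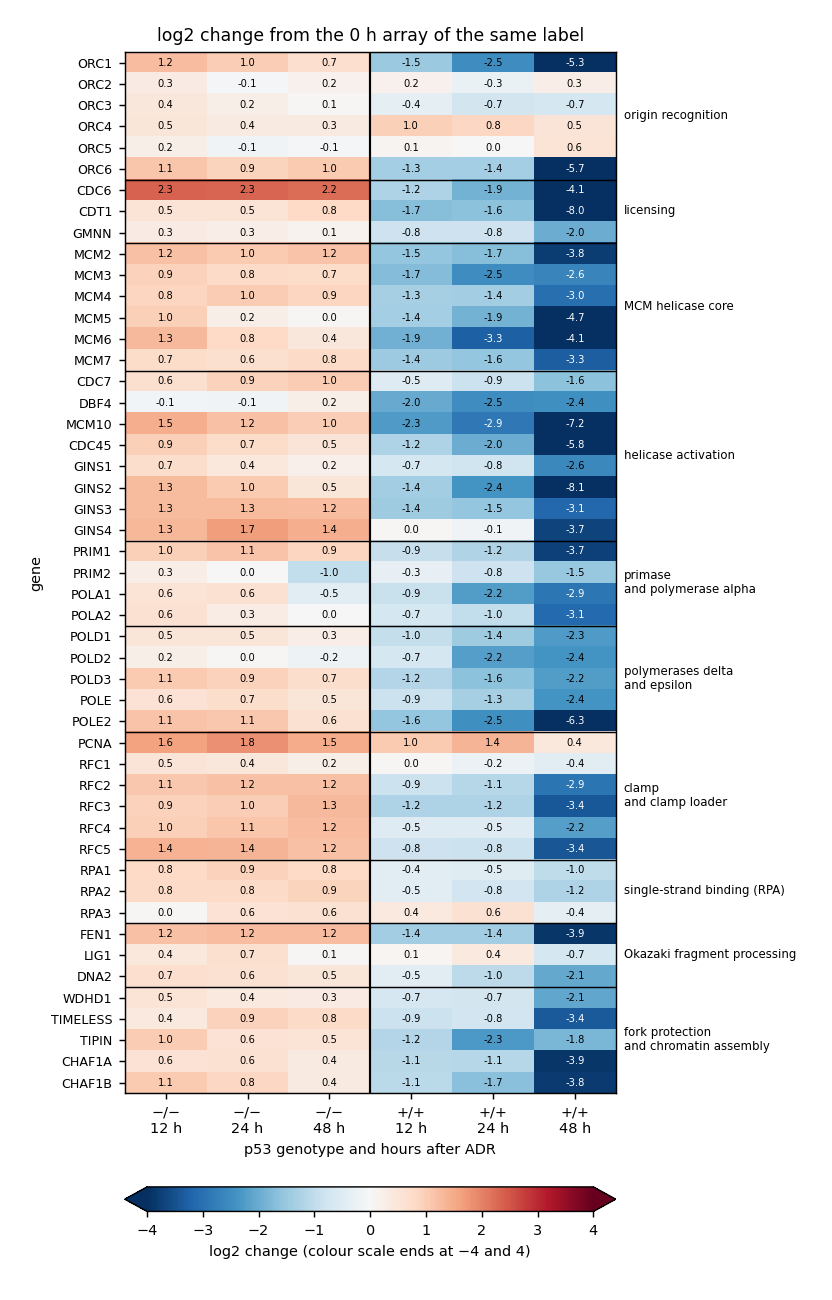
Log2 change of each of the 49 genes (rows, grouped by role) from the 0 h array of the same label, for p53−/− (left) and p53+/+ (right) at 12, 24 and 48 h. Blue is lower and red is higher, the colour scale ends at −4 and 4, and each cell prints its value. The p53+/+ side is mostly blue and darkest at 48 h, while the p53−/− side is mostly pale red.

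Set against the array labelled p53+/+ 0 h, 22, 29 and 41 of 49 genes were at least 2-fold lower in p53+/+ cells at 12, 24 and 48 h, against 10.8, 14.3 and 12.3% of all genes, and 22 were so at all 3 times, against 6.39%. The median changes were −0.88, −1.24 and −2.89. Since the label of that array is in doubt, the same arrays were also set against the p53−/− 0 h array. At least 2-fold lower were then 8, 21 and 40 of 49, against 11.0, 13.7 and 12.1% of all genes, with medians of −0.49, −0.75 and −2.32. The count at 12 h thus moved with the choice of 0 h array, from 22 to 8, and that at 48 h hardly did. Only PCNA was at least 2-fold higher at any time on the first baseline, by 1.04 and 1.36 at 12 and 24 h. Of all genes, 13.1, 15.7 and 19.0% were so at 12, 24 and 48 h.

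In p53−/− cells the genes were mostly higher after ADR. At 12, 24 and 48 h, 17, 14 and 12 of 49 were at least 2-fold above the p53−/− 0 h array, against 4.82, 9.65 and 14.9% of all genes. The excess over the background was largest at 12 h and smallest at 48 h. The median changes were 0.79, 0.76 and 0.60. Those at least 2-fold higher at all 3 times were 8 of 49, against 3.21%: MCM2, CDC6, GINS3, GINS4, PCNA, RFC2, RFC5 and FEN1. CDC6 was 5.09, 5.01 and 4.70-fold higher, PCNA 3.05, 3.54 and 2.82-fold, and GINS4 2.52, 3.18 and 2.71-fold. The rise of CDC6 starts from a dim level of −4.30 at 0 h, with a log2 technical SD of 0.24 at 12 h. In 43 genes the p53−/− 0 h array was the lowest of the 4, against 33.1% of all genes, with ORC2, ORC5, DBF4, PRIM2, POLA1 and POLD2 as the exceptions.

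These rises rested on the p53−/− 0 h array. The array labelled p53+/+ 0 h was above it in 45 of 49 genes, with a median difference of 0.40 against 0.03 for all genes, and 5 genes, MCM10, CDC6, GINS3, PCNA and FEN1, were at least 2-fold higher there, against 4.25% of all genes. Set against the array labelled p53+/+ 0 h, 0, 1 and 1 of 49 genes were at least 2-fold higher in p53−/− cells at 12, 24 and 48 h, against 2.30, 9.57 and 14.7% of all genes, with medians of 0.37, 0.28 and 0.16. The gene at 24 and 48 h was CDC7.

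Whether the change from 0 h differed between genotypes was tested with the interaction of genotype and ADR over all 8 arrays. In the limma fit, 0 of 49 genes passed, against 0.746% of probes with a negative interaction. At an unadjusted limma p under 0.05 there were 18, a threshold at which no share of all probes is given here. The smallest adjusted p was 0.0507, for MCM3. In 37 of 49 genes every treated p53+/+ array was below and every treated p53−/− array above the 0 h array of its label, by any size, against 11.1% of all genes. The interaction was below 0 in 47 of 49 genes, with a median of −2.48. It rests on 1 untreated array for each genotype, of which the one labelled p53+/+ is in doubt. Left out in turn, the p53+/+ 48 h and 12 h arrays gave 8 and 1 genes past the threshold, against 208 and 141 of 28947 probes with a negative interaction.

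A wider set of 34 other replication genes, listed by name, was described in the same way. In treated p53+/+ cells, 17, 22 and 20 of 34 were at least 2-fold lower at 12, 24 and 48 h than in p53−/− cells, against 9.70, 14.0 and 15.5% of all genes. In the limma fit 12 of 34 were lower at an adjusted p under 0.05, against 7.40% of probes, and 1 was higher, against 10.6%, with a median of −1.28. The lower ones included TICRR, which helps to load CDC45 (−2.88 ± 0.48, limma adjusted p = 0.011), POLE3, an accessory subunit of polymerase epsilon (−1.27 ± 0.19, limma adjusted p = 0.007), and SUPT16H, a histone chaperone subunit (−1.20 ± 0.18, limma adjusted p = 0.008). TICRR was not well above background on the p53+/+ 48 h array, and its fit used the measured value there. The higher one was POLD4, the small subunit of polymerase delta (1.01 ± 0.20, limma adjusted p = 0.018).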

How the data were processed

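RNA of 8 samples, MCF10A p53+/+ and p53−/− at 0, 12, 24 and 48 h after ADR, was hybridised to 1 single-colour Agilent array each. The authors deposited the scanner output of Agilent Feature Extraction 10.7.3.1, whose processed signal is a background-corrected intensity, and a table of the whole series that held the same numbers (503808 of 503808 values equal within a relative tolerance of 1e-05). Samples were grouped by their labels.

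Each spot's processed signal was divided by the array's 75th percentile, converted to log2 and averaged per probe, leaving out spots with a quality flag (14 probes lost, 42391 left). Probes were named by transcript accession through RefSeq genes of GRCh38.p14, which matched 27227 probes (64.2%) to 20296 genes. The arrays were designed on another build, so no probe coordinates are given, and those of the promoter windows are RefSeq's. Of several probes of a gene, the one with the highest average level was used. A probe was well above background when most of its spots were. The technical SD came from the spread of spots within each array, over 999 probes with 10 spots.

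Differences of at least 2-fold were counted at each time, without a test. The genotype fit (limma, lmFit and eBayes) used the 6 treated arrays with 4 residual degrees of freedom, and the interaction fit all 8 arrays. P-values were adjusted by Benjamini-Hochberg over the 28947 probes detected above background on any array, with a threshold of 0.05. Both fits were tested on simulated data. The members, gene lists and motifs were chosen with earlier results of these data known. Named in full were MCM2 to MCM7, CDC6, CDT1, ORC1, GMNN, CDC45, GINS1 to GINS4, PCNA, the 5 genes with the largest and the 5 with the smallest fitted difference, and those with a difference above 0. Some values that the planned check of the labels covers are not reported here. The other genes given with values were chosen after their values were seen. Alternatives were other scalings, normexp (offset 50, on the median spot signal), quantile normalization, the mean of all probes, 2 filters on dim probes, a 3-fold rule, time as a block, each time or treated array left out, and other 0 h baselines. The fits ran in limma 3.58.1 under R 4.3.3, and everything else in Python 3.11.15 with pandas 2.3.3 and numpy 2.4.6, with figures drawn in matplotlib 3.10.9.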

Additional observations from a re-analysis of the deposited data

Results flagged for a closer look

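In 37 of the 49 genes, each of the 3 treated p53+/+ arrays lay below the array labelled p53+/+ 0 h while each of the 3 treated p53−/− arrays lay above the p53−/− 0 h array, against 11.1% of all genes. They are given a closer look because the changes had opposite signs, whatever their size. In p53−/− cells at 48 h, POLA2, MCM5 and ORC3 were above 0 h by only 0.006, 0.045 and 0.050. The technical SDs of these changes were 0.093, 0.060 and 0.066. The values below are the mean log2 change in p53+/+ minus that in p53−/− cells. The difference was not tested at single times for want of replicates, and in the interaction fit none of the 37 passed (limma, smallest adjusted p = 0.0507, in MCM3). Values of −4 or lower were in MCM10 (−5.30), GINS2 (−4.89), CDC6 (−4.72), CDT1 (−4.41), POLE2 (−4.37) and ORC1 (−4.05). These 6 genes were not well above background on the p53+/+ 48 h array, nor CDC6 at 24 h, so their values have no order, and with the bound in place of the dim arrays they are −4.65, −4.44, −4.11, −4.25, −3.69 and −3.71 or lower. The bound is not a strict limit, as given for CDC6 above. Next came MCM6 (−3.94), ORC6 (−3.83), CDC45 (−3.74), MCM2 (−3.46), FEN1 (−3.44), GINS3 (−3.29), MCM3 (−3.10), MCM5 (−3.05), RFC3 (−3.02) and RFC5 (−3.01). Values nearer to 0 were those of PRIM1 (−2.95), CHAF1B (−2.95), MCM7 (−2.81), MCM4 (−2.81), RFC2 (−2.78), POLD3 (−2.57), CHAF1A (−2.55), TIPIN (−2.48), TIMELESS (−2.35), RFC4 (−2.19) and POLE (−2.11). The smallest were in POLD1 (−1.97), POLA2 (−1.91), CDC7 (−1.86), GINS1 (−1.80), DNA2 (−1.77), RPA2 (−1.64), WDHD1 (−1.58), GMNN (−1.47), RPA1 (−1.46) and ORC3 (−0.85). All of them rest on the 2 untreated arrays, and the array labelled p53+/+ 0 h read like the p53−/− arrays for MDM2, DCN and CDH1.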

How the results depend on the processing

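The number of genes at least 2-fold lower in treated p53+/+ cells kept within 1.5 times its value at 12, 24 and 48 h under every alternative scaling, filter and probe choice, and was 18 at 12 h under the 3-fold rule. The median difference between treated genotypes, averaged over the 3 times, was −1.99, and it was −2.12 with the array median, −2.59 without scaling, −2.10 after quantile normalization, −1.75 with normexp and −1.79 when dim probes were dropped (well above background on 8 of 8 arrays). The median change in p53+/+ was −1.67, and −1.82, −2.09, −1.53 and −1.48 with the array median, without scaling, with normexp and with that filter, or −1.19 from the p53−/− 0 h array. The median change in p53−/− was 0.72, and 1.11 without scaling or 0.27 from the array labelled p53+/+ 0 h, a baseline added after the data were seen.

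Genes lower in the genotype fit numbered 23, and 37 without scaling, 41 with normexp, 11 without the 12 h arrays, 0 without the 24 h arrays (limma, 29 at an unadjusted p under 0.05), and 5 to 35 with 1 array left out. In the same order, 2143, 8028, 2637, 1211, 85 and 684 to 2009 of 28947 probes were lower at the adjusted threshold. No share of all probes is given for the unadjusted count. With time as a block 26 were lower, against 1881 of 28947 probes, with RFC3 and RFC4 lost and MCM5, PRIM2, POLD2, POLE2 and CHAF1B gained. With normexp 1 gene, ORC4, was called higher, against 7257 of 28947 probes. The labels give no replicate numbers, so no other pairing was tried. Genes past the interaction fit numbered 0, and 1 with the mean of probes, 2 with the array median, 3 without scaling, 6 with normexp, 3 with the filter on all 8 arrays, 2 after quantile normalization and 0 to 8 with 1 array left out. In the same order, all those past it with a negative interaction were 216, 171 of 15855 genes, 274, 1115, 420, 259 of 19278 probes, 326 and 19 to 208. The other totals were 28947 probes. If both genotypes start from the p53−/− 0 h array, the interaction becomes the genotype fit, so this was not run. The cause of these shifts was not tested, and neither was the part of the fewer arrays in the reduced fits.

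Among genes near 0, ORC5 was −0.091 with the array median, −0.56 without scaling, −0.021 after quantile normalization, −0.047 with the mean of probes, −0.16 without the 48 h arrays and −0.12 to 0.15 with 1 array left out, negative without p53+/+ 48 h (−0.12) or p53−/− 24 h (−0.028). ORC2 was 0.021 without the 24 h arrays and −0.14 to 0.12 with 1 array left out, positive without p53+/+ 24 h (0.12) or p53−/− 12 h (0.052). LIG1 was −0.45 to 0.082 with 1 array left out, highest without p53+/+ 48 h, RPA3 was 0.047 without the 48 h arrays, and without scaling PCNA was −0.23 and ORC4 −0.061. Scaling moved the median of all probes from 0.09 to −0.51 without it and to 0.28 with normexp, and the share of lower among called probes from 41.2% to 54.3% with the array median, 85.5% without scaling, 26.7% with normexp, 51.7% after quantile normalization and 21.6% without a filter.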

Other observations

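For 13 of the 49 genes a further 15 probes were on the array, and 14 of these were well above background on at least 1 array. In the comparison of treated genotypes, the further probes of MCM5 (−2.91), MCM7 (−2.41), RFC3 (−2.65), RPA2 (−1.57) and CHAF1A (−2.38) were at least 2-fold lower at all 3 times, as the probes used were. Those of RPA1 and POLE gave −1.58 and −1.25 against −1.02 and −2.05 for the probes used, and passed the fit (limma adjusted p = 0.0368 and 0.0150). The 2 further PRIM2 probes gave −1.14 and −1.12 and did not pass (limma adjusted p = 0.100 and 0.175), and those of ORC2, ORC4 and ORC5 gave −0.13, 0.14 and −0.14. In p53−/− cells, 1 of the PRIM2 probes changed by 1.39 on average from 0 h and the other by −0.12, so the probes of this gene disagreed.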
